A study of Mus musculus with 6 samples.

Results

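The growth factor genes described here are 53 of the 16537 genes measured in whole mouse lung after naphthalene. They were chosen by a rule on symbols, written with earlier results of these data known: probe sets with 1 annotated gene symbol that names a fibroblast growth factor (FGF) or its receptor, a platelet-derived growth factor (PDGF) or its receptor, an ErbB receptor, or a gene whose symbol begins with Igf, together with the epidermal growth factor (EGF) type ligands. Pdgfra and Igfbp2 fit these symbols but were left out by name, and they are given below as pathway genes with their values. By family there were 25 FGF, 8 EGF, 6 PDGF and 14 insulin-like growth factor (IGF) genes. A gene with several probe sets was read at the one with the highest mean, which applied to 3 members, while 50 members had 1 probe set. Egf and Areg, which the rule also names, were not analysed here.

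RNA of whole lung was hybridised to 6 single-channel arrays. The 3 arrays labelled Falcor-null are, by their labels, from mice null for the long non-coding RNA gene Falcor, with labels of 31, 32 and 33 days after naphthalene. The 3 wild-type arrays carried labels of 28, 29 and 30 days after naphthalene. All 6 samples had naphthalene, a compound that club cells of the airway turn into a toxic metabolite, and all carried the CD1_C57Bl6_mix strain label, so that no array shows uninjured lung. Day and genotype changed together in the labels, and their effects cannot be told apart. The day labels also step by 1 from array to array, and whether they are true sampling days could not be settled. The labels gave no age. Nothing in them says that each array had an animal of its own, and p-values here therefore reflect array-to-array spread that may be technical.

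Growth factor families carry signals between the epithelium, mesenchyme and vessels of the lung. FGF ligands of the mesenchyme, Fgf10 above all, drive branching of the lung epithelium through the receptor Fgfr2, and EGF-type ligands act on Egfr and its ErbB partners in epithelial repair. PDGF ligands act on the mesenchymal receptors Pdgfra and Pdgfrb and guide alveolar fibroblasts, smooth muscle and pericytes. IGF ligands act through Igf1r, and secreted IGF-binding proteins hold them in reserve.

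Values are log2 signals, in which a difference of 1 is a doubling. Array medians over all probe sets lay between 6.69 and 6.74, and precision is limited by how few arrays there are. The lowest signal was 2.09 to 2.42 on the arrays labelled Falcor-null and 3.19 to 3.22 on the wild-type arrays. As a check of the tissue, 10 alveolar type 2 cell genes averaged 12.02 to 12.13 on the arrays labelled Falcor-null and 12.02 to 12.17 on the wild-type arrays, and 8 club cell genes averaged 10.92 to 11.02 and 10.90 to 11.05 on the same groups of arrays. The Falcor probe set (symbol 9030622O22Rik) read 6.82, 6.34 and 6.32 on the arrays labelled Falcor-null and 4.69, 5.01 and 5.45 on the wild-type arrays, a difference opposite to the labels. At 1.44 (SE 0.21, 2.72-fold, limma adjusted p 0.0423) it was among the 16 genes that passed as higher on the arrays labelled Falcor-null. Whether this probe set falls inside the deleted stretch could not be told, so every direction below rests on the labels.

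None of the 53 members passed the test at an adjusted p of 0.05, in limma over all 16537 genes, where 0.556% of genes passed. The members instead showed many small differences in 1 direction. The log2 difference, Falcor-null minus wild type, was above 0 for 45 members and below 0 for 8, with 46 above 0 after centring the arrays on their medians and 42 after a second quantile normalization. Of all genes, 50.8% had a difference above 0, with 58.5% after centring and 56.9% after a second quantile normalization. The median difference was 0.13 over the members and 0.00 over all genes, and it was 0.08 over the members without Falcor-null replicate 2. The mean signal of the 53 members was 7.04 to 7.10 on the arrays labelled Falcor-null and 6.94 on each wild-type array. These are descriptions and not tests, because the members share arrays and are not independent of one another.

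At an unadjusted p of 0.05 in limma, 9 members passed, all of them higher on the arrays labelled Falcor-null, and without Falcor-null replicate 1 the count was 5, of which 4 were higher and 1 was lower. Over all genes 13.8% passed this threshold in either direction, 6.11% as higher and 7.65% as lower. Groups of arrays did not overlap for 10 members, 9 of them higher and 1 lower, where 19.5% of all genes had groups that did not overlap, 8.96% as higher and 10.6% as lower. As a share of the 53 members these were 18.9% in either direction, 17.0% as higher and 1.89% as lower. The number of members with separated groups was thus near the background, and their direction was mostly upward.

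The precision of a single gene was moderate. Standard errors of the members' differences ran from 0.07 to 0.25 on the log2 scale, with a median of 0.11. The 95% intervals, taken gene by gene, lay between -0.69 for Igf1 and 1.11 for Fgfr4. A doubling lay inside the interval of Fgfr4 only, and no member's interval reached a halving.

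**Figure D1:**
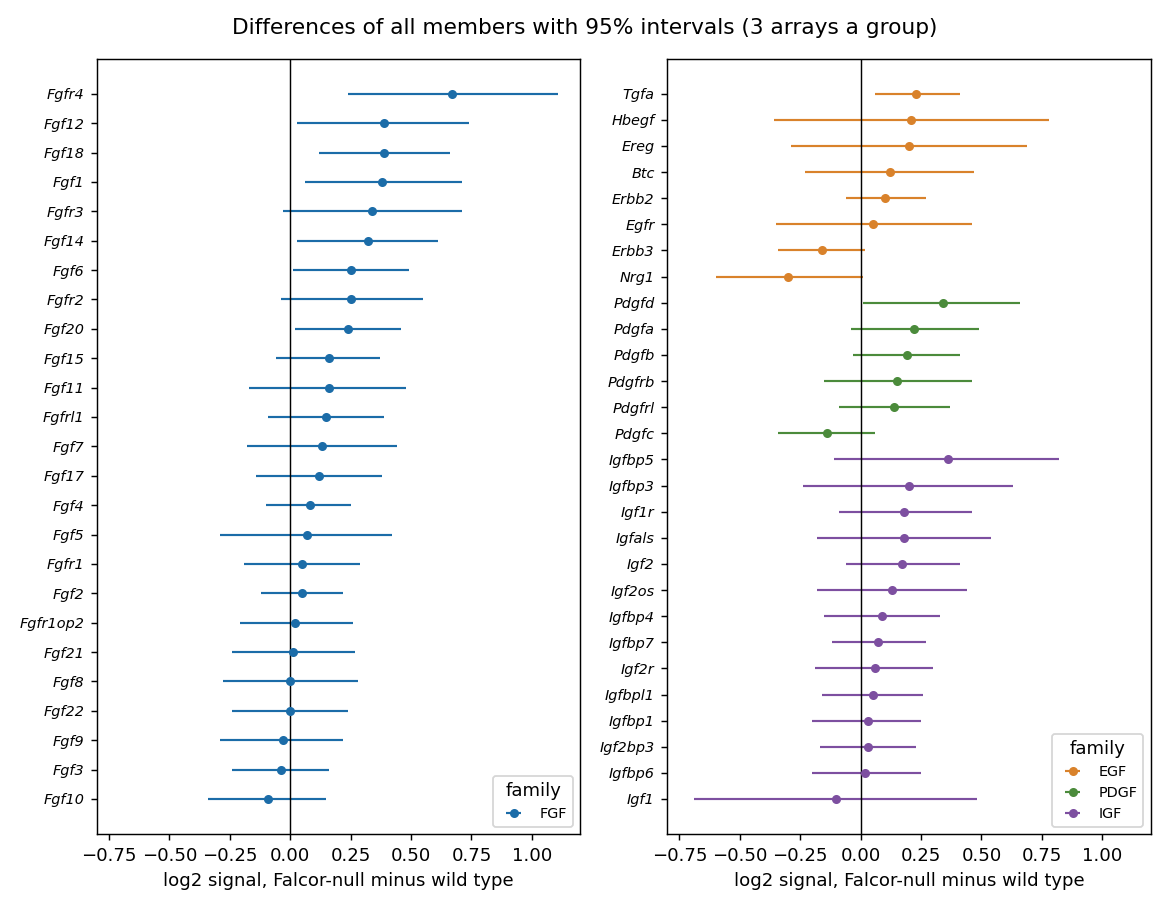
Log2 difference of each of the 53 members, arrays labelled Falcor-null minus wild type (horizontal axis), with FGF genes on the left and EGF, PDGF and IGF genes on the right. Points are differences of means over 3 arrays a group and bars are 95% intervals from limma. Most points lie right of 0, from -0.30 for Nrg1 to 0.67 for Fgfr4, and 9 intervals leave out 0 before adjustment.

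**Figure D2:**
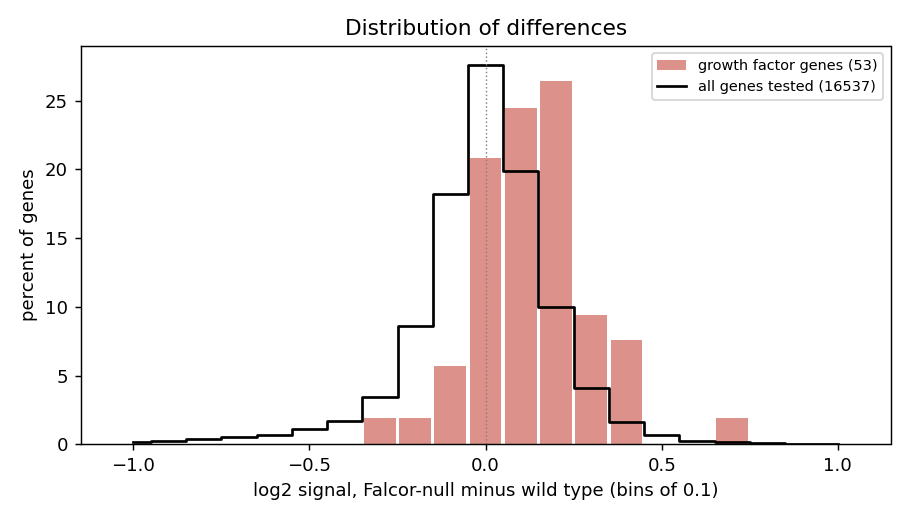
Percent of genes (vertical axis) in bins of 0.1 of the log2 difference, arrays labelled Falcor-null minus wild type (horizontal axis), for the 53 members (bars) and all 16537 genes (line). The members' bars sit to the right of the line, with medians of 0.13 and 0.00, and 105 of all genes lie outside the range drawn.

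The largest difference of any member was in an FGF receptor. Fgfr4, a receptor tyrosine kinase of the FGF family, read 8.50, 8.0 and 8.40 on the arrays labelled Falcor-null, against 7.37, 7.97 and 7.54 on the wild-type arrays. The gap between the groups was 0.03, since the lowest array labelled Falcor-null lay just above the highest wild-type array. The log2 difference of 0.67 (SE 0.18, 1.60-fold) did not pass in limma (adjusted p 0.177). Fgfr3, a receptor kinase known for its part in bone growth, read 8.12, 8.29 and 8.59 on the arrays labelled Falcor-null, against 8.28, 7.88 and 7.82 on the wild-type arrays, with 1 wild-type array inside the range of the other group (difference 0.34, limma adjusted p 0.405). Fgfr2, the receptor of Fgf7 and Fgf10 in lung epithelium, read 9.85, 9.47 and 9.58 on the arrays labelled Falcor-null, against 9.38, 9.22 and 9.54 on the wild-type arrays, and the groups overlapped (difference 0.25, limma adjusted p 0.424).

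Fgfr1, a receptor used widely by mesenchyme, read 7.40, 7.46 and 7.42 on the arrays labelled Falcor-null, against 7.56, 7.38 and 7.19 on the wild-type arrays, which enclosed them (difference 0.05, limma adjusted p 0.882). All 4 FGF receptor kinases thus had differences above 0, also under both other scalings, with a median of 0.30 and none passing. Fgfrl1, an FGF receptor relative that lacks the kinase domain, differed by 0.15 (limma adjusted p 0.561). Fgfr1op2, which is named after FGFR1 and is no receptor, differed by 0.02 (limma adjusted p 0.947).

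Among 16 secreted FGF ligands, 12 had differences above 0 and 4 below 0, with 13 above 0 after centring and 11 after a second quantile normalization. Fgf18, a ligand of the growing lung's mesenchyme, read 8.27, 7.95 and 7.88 on the arrays labelled Falcor-null, against 7.57, 7.63 and 7.73 on the wild-type arrays. Every array labelled Falcor-null lay above every wild-type array, and the difference of 0.39 (SE 0.12, 1.31-fold) did not pass in limma (adjusted p 0.207). Fgf1, a ligand that binds all FGF receptors, read 9.86, 9.63 and 9.74 on the arrays labelled Falcor-null, against 9.50, 9.53 and 9.06 on the wild-type arrays. These groups did not overlap either, with wild type replicate 3 lowest, and the difference was 0.38 (SE 0.14, 1.30-fold, limma adjusted p 0.286) and 0.23 without that array. Fgf15, in mouse a hormone of the gut that curbs bile acid synthesis, read 5.14, 5.06 and 5.15 on the arrays labelled Falcor-null, against 5.04, 4.79 and 5.04 on the wild-type arrays (difference 0.16, limma adjusted p 0.506). Its signal was in the lowest 30% of probe sets, and its second probe set differed by 0.03.

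Fgf10 and Fgf7, the ligands named above with Fgfr2, showed little. Fgf10 read 6.79, 6.70 and 7.06 on the arrays labelled Falcor-null, against 6.91, 6.94 and 6.98 on the wild-type arrays. The wild-type values lay within the range of the other group, with a difference of -0.09 (95% interval -0.34 to 0.15, limma adjusted p 0.753). Its second, dimmer probe set differed by 0.21 (limma adjusted p 0.547), so that even the sign depended on the probe set. Fgf7, also called keratinocyte growth factor, read 7.90, 7.73 and 7.68 on the arrays labelled Falcor-null, against 7.86, 7.70 and 7.38 on the wild-type arrays, which overlapped them (difference 0.13, limma adjusted p 0.734).

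Fgf2, or basic FGF, read 6.34, 6.37 and 6.30 on the arrays labelled Falcor-null, against 6.30, 6.22 and 6.33 on the wild-type arrays, a narrow range on all 6 (difference 0.05, limma adjusted p 0.806). Fgf9, a ligand of embryonic lung epithelium and mesothelium, read 4.93, 5.01 and 4.72 on the arrays labelled Falcor-null, against 4.75, 5.03 and 4.98 on the wild-type arrays. Its groups overlapped and its signal was in the lowest 30% of probe sets (difference -0.03, limma adjusted p 0.928). Fgf20 (0.24) and Fgf6 (0.25), named after their values were seen, were the other secreted ligands with an unadjusted p under 0.05, with limma adjusted p-values of 0.314 and 0.335, and their groups overlapped. The 7 remaining secreted ligands, Fgf3, Fgf4, Fgf5, Fgf8, Fgf17, Fgf21 and Fgf22, differed by -0.04 to 0.12, with limma adjusted p-values of 0.692 to 0.999. Fgf21 and Fgf8 among them changed sign with the scaling. All of these 7 but Fgf17 and Fgf22 had signals in the lowest 30% of probe sets.

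The 3 FGF homologous factors among the members stay inside the cell and bind voltage-gated sodium channels instead of acting as secreted ligands. All 3 had differences above 0, also under both other scalings. Fgf12 read 5.0, 4.58 and 4.47 on the arrays labelled Falcor-null, against 4.38, 4.10 and 4.39 on the wild-type arrays. Fgf14 read 5.14, 5.22 and 5.02 on the arrays labelled Falcor-null, against 4.92, 4.55 and 4.94 on the wild-type arrays. For both genes the groups did not overlap, and the differences were 0.39 (SE 0.15) and 0.32 (SE 0.12), with limma adjusted p-values of 0.320 and 0.309. Fgf12 was 0.23 without Falcor-null replicate 1, and Fgf14 was 0.19 without wild type replicate 2. Fgf11 differed by 0.16 (limma adjusted p 0.680).

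Fgf12, Fgf14, Fgf6 and Fgf20 belong to the 18 members whose mean signal was in the lowest 30% of probe sets, where no detection call was at hand. Of these 18, 15 had differences above 0, with a median of 0.10. Over all genes, 56.7% of those dimmer than the median probe set had a difference above 0, and 45.8% of the brighter ones. Among the members the count was 20 of 24 for the dimmer and 25 of 29 for the brighter ones. The part of the array's lower range in the dim members' differences was not tested.

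**Figure D3:**
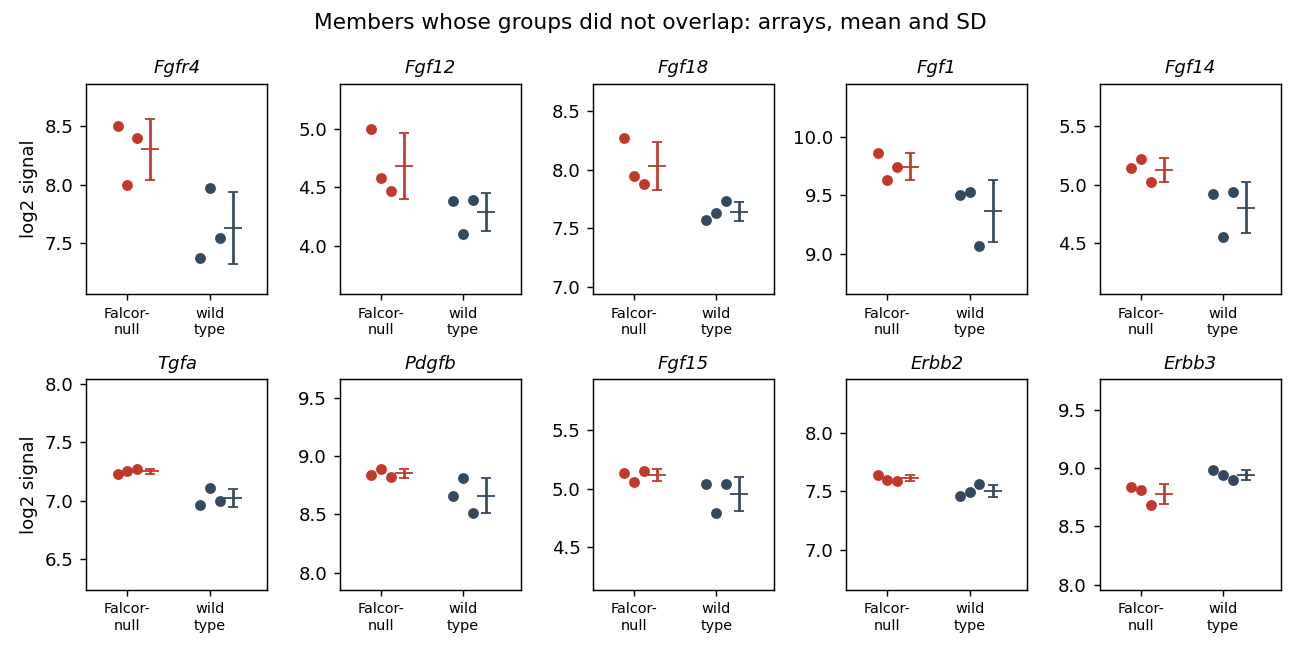
Log2 signal (vertical axis, the same span in every panel) of the 10 members whose groups did not overlap, with 3 arrays labelled Falcor-null on the left and 3 wild-type arrays on the right of each panel. Points are arrays and bars are mean and SD. The gap between the groups runs from 0.01 for Pdgfb to 0.15 for Fgf18, and Erbb3 is the only one of these with the arrays labelled Falcor-null lower.

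Promoter sequence is shown for the 3 members with the smallest p-values, Fgfr4, Fgf18 and Tgfa, and for Fgf10, the ligand with a forkhead motif before its start. The series title names Foxa2, a forkhead factor, as the gene under Falcor's control, so the motif TGTTTAC was searched on both strands in the 250 bases before each gene start in RefSeq promoters of GRCm38.p6. It occurred in 3.17% of 32851 promoters. Of the 53 members, 38 had a promoter in that table and 2 of these held the motif, Fgf10 and Igfals. A match is a description of the letters and not a bound site, and the differences of Fgf10 (-0.09) and Igfals (0.18) did not pass. The 4 windows are chr13:55152568-55152817 on the plus strand for Fgfr4, chr11:33147401-33147650 on the minus strand for Fgf18, chr6:86194972-86195221 on the plus strand for Tgfa and chr13:118714449-118714698 on the plus strand for Fgf10. G and C made up 64.0% of the Fgfr4 window, 77.2% of that of Fgf18, 69.2% of that of Tgfa and 61.2% of that of Fgf10. Capitals mark the forkhead motif, which starts at base 240 of the Fgf10 window, counted from its 5′ end.
Fgfr4: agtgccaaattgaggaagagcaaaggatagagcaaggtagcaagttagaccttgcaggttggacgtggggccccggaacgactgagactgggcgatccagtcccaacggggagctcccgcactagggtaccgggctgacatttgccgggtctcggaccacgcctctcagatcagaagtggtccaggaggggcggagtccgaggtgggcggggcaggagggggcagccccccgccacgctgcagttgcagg
Fgf18: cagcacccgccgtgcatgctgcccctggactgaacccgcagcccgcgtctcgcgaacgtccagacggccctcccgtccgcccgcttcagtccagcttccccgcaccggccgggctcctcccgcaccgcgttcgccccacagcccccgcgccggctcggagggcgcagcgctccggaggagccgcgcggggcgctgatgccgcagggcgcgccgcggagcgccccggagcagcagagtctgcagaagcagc
Tgfa: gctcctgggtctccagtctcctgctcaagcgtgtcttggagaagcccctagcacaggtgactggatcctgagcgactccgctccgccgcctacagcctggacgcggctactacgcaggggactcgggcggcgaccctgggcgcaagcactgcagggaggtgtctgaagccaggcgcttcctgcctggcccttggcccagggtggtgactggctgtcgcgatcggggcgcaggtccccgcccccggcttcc
Fgf10: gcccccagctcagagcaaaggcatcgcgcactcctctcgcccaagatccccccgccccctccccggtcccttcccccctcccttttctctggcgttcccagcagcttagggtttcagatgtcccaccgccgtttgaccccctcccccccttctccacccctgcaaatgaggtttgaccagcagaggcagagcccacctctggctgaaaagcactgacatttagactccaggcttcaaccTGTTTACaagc

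In the EGF family 6 of 8 members had differences above 0, also under both other scalings, and none passed. Tgfa, transforming growth factor alpha, a ligand of Egfr, read 7.23, 7.25 and 7.27 on the arrays labelled Falcor-null, against 6.96, 7.11 and 7.0 on the wild-type arrays. The 3 arrays labelled Falcor-null were within 0.04 of one another and above all wild-type arrays, and the difference of 0.23 (SE 0.08, 1.18-fold) did not pass in limma (adjusted p 0.236). Nrg1, neuregulin 1, a ligand of Erbb3 and Erbb4, read 7.46, 7.18 and 7.17 on the arrays labelled Falcor-null, against 7.57, 7.36 and 7.76 on the wild-type arrays. It had the lowest difference of all members, -0.30 (SE 0.13, limma adjusted p 0.370), and its groups overlapped through 1 array of each.

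Hbegf, a heparin-binding ligand of Egfr, read 8.06, 8.31 and 7.43 on the arrays labelled Falcor-null, against 7.37, 7.86 and 7.94 on the wild-type arrays. It spread widely within both groups (difference 0.21, SE 0.24, limma adjusted p 0.763), and the difference was 0.03 without wild type replicate 1 and 0.02 without Falcor-null replicate 2. Ereg, epiregulin, read 5.99, 6.55 and 5.74 on the arrays labelled Falcor-null, against 6.0, 5.65 and 6.04 on the wild-type arrays. Falcor-null replicate 2 alone stood high, and without it the difference of 0.20 (limma adjusted p 0.742) was -0.03. Btc, betacellulin, read 5.16, 5.63 and 5.08 on the arrays labelled Falcor-null, against 5.11, 5.10 and 5.30 on the wild-type arrays. The same array was its highest, and without it the difference of 0.12 (limma adjusted p 0.790) was -0.05. Btc had a signal in the lowest 30% of probe sets.

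The EGF-type receptors split. Erbb2, a receptor kinase that binds no known ligand and acts as a partner of the others, read 7.64, 7.60 and 7.59 on the arrays labelled Falcor-null, against 7.46, 7.49 and 7.56 on the wild-type arrays. The difference of 0.10 was small although the groups did not overlap (SE 0.07, limma adjusted p 0.580). Erbb3, the neuregulin receptor whose own kinase is weak, read 8.84, 8.81 and 8.68 on the arrays labelled Falcor-null, against 8.98, 8.94 and 8.90 on the wild-type arrays. Here every array labelled Falcor-null lay below every wild-type array, by a mean of -0.16 (SE 0.08, limma adjusted p 0.422). Nrg1 and the receptor gene Erbb3 were thus both on the lower side, and neither passed. Among other neuregulin genes, Nrg2 differed by 0.20 with groups that did not overlap, and Nrg4 by -0.08 (limma adjusted p 0.395 and 0.773). Egfr read 8.44, 8.96 and 8.91 on the arrays labelled Falcor-null, against 8.90, 8.82 and 8.43 on the wild-type arrays, and the ranges nearly coincided (difference 0.05, 95% interval -0.35 to 0.46, limma adjusted p 0.929).

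In the PDGF family 5 of 6 members had differences above 0, also under both other scalings, and none passed. Pdgfb, the ligand by which endothelium recruits pericytes, read 8.84, 8.89 and 8.82 on the arrays labelled Falcor-null, against 8.66, 8.81 and 8.51 on the wild-type arrays. The groups did not overlap, and the difference was 0.19 (SE 0.09, 1.14-fold, limma adjusted p 0.431) and 0.11 without wild type replicate 3. Pdgfa, the ligand of Pdgfra that alveolar myofibroblasts depend on, read 8.44, 8.22 and 8.02 on the arrays labelled Falcor-null, against 7.94, 8.04 and 8.04 on the wild-type arrays. Its groups overlapped through Falcor-null replicate 3 (difference 0.22, limma adjusted p 0.446). Pdgfd, a ligand of Pdgfrb outside the rule for named genes and chosen for its small p, read 7.85, 7.64 and 8.03 on the arrays labelled Falcor-null, against 7.70, 7.55 and 7.28 on the wild-type arrays, and the groups overlapped (difference 0.34, SE 0.14, limma adjusted p 0.353).

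Pdgfrb, the receptor of pericytes and smooth muscle, read 9.88, 9.50 and 9.71 on the arrays labelled Falcor-null, against 9.33, 9.65 and 9.65 on the wild-type arrays, and the groups overlapped (difference 0.15, SE 0.13, limma adjusted p 0.665). Pdgfra, the receptor of alveolar fibroblasts and no member, read 10.86, 10.98 and 11.06 on the arrays labelled Falcor-null, against 10.75, 10.83 and 10.51 on the wild-type arrays. Its groups did not overlap, and the difference was 0.27 (SE 0.11, limma adjusted p 0.325). The other members of the family, Pdgfc and the receptor-like protein gene Pdgfrl, differed by -0.14 (limma adjusted p 0.539) and 0.14 (limma adjusted p 0.588).

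In the IGF family 13 of 14 members had differences above 0, with 13 also after centring and 11 after a second quantile normalization. None passed, none had an unadjusted p under 0.05, and none had groups that did not overlap. Igf1, a growth factor that macrophages and mesenchyme make in lung, read 7.05, 7.44 and 7.20 on the arrays labelled Falcor-null, against 6.91, 7.94 and 7.15 on the wild-type arrays. Wild type replicate 2 stood above the 5 other arrays, and without it the difference of -0.10 (SE 0.25, limma adjusted p 0.899) was 0.20. Igf2, the mainly fetal ligand, read 5.82, 5.81 and 5.55 on the arrays labelled Falcor-null, against 5.56, 5.63 and 5.47 on the wild-type arrays, and the groups overlapped (difference 0.17, limma adjusted p 0.505). Igf2os, an RNA antisense to Igf2, differed by 0.13 (limma adjusted p 0.727). The signals of Igf2 and Igf2os were both in the lowest 30% of probe sets.

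Igf1r, the receptor kinase of both ligands, read 9.36, 9.21 and 9.13 on the arrays labelled Falcor-null, against 9.27, 8.97 and 8.91 on the wild-type arrays. Its groups overlapped through wild type replicate 1 (difference 0.18, SE 0.12, limma adjusted p 0.538). Igf2r, which clears Igf2 and sorts lysosomal enzymes, differed by 0.06 (limma adjusted p 0.867).

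All 7 IGF-binding protein genes among the members had differences above 0, from 0.02 to 0.36, but Igfbp1 was below 0 after a second quantile normalization. Igfbp5 read 10.61, 10.23 and 9.78 on the arrays labelled Falcor-null, against 9.81, 9.72 and 10.02 on the wild-type arrays. Its difference of 0.36 (SE 0.20, limma adjusted p 0.485) was the highest of the family and came with overlap, since Falcor-null replicate 3 read below 2 wild-type arrays. Without Falcor-null replicate 1 it was 0.15, below the 0.36 of Igfbp3 in the same setting. Igfbp3, the main carrier of IGF in blood, read 8.56, 8.95 and 9.17 on the arrays labelled Falcor-null, against 8.73, 8.41 and 8.95 on the wild-type arrays, and the groups overlapped (difference 0.20, limma adjusted p 0.702).

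Igfbp4 read 9.41, 9.55 and 9.31 on the arrays labelled Falcor-null, against 9.31, 9.21 and 9.48 on the wild-type arrays (difference 0.09, limma adjusted p 0.755). Igfbp6, which prefers Igf2 as its ligand, read 9.49, 9.58 and 9.30 on the arrays labelled Falcor-null, against 9.53, 9.37 and 9.41 on the wild-type arrays (difference 0.02, limma adjusted p 0.950). Igfbp7, a relative made by endothelium that binds IGF weakly, read 12.39, 12.53 and 12.31 on the arrays labelled Falcor-null, against 12.34, 12.37 and 12.30 on the wild-type arrays (difference 0.07, limma adjusted p 0.764). In all 3 of these genes the groups overlapped, and their intervals lay between -0.20 and 0.33. Igfbp1 (0.03) and Igfbpl1 (0.05), both in the lowest 30% of probe sets, had limma adjusted p-values of 0.932 and 0.870. The remaining members by symbol were Igfals (0.18), a subunit of the carrier complex in blood, and Igf2bp3 (0.03), an RNA-binding protein gene that changed sign after a second quantile normalization (limma adjusted p 0.677 and 0.916). The signals of Igfals and Igf2bp3 were also in the lowest 30% of probe sets.

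Igfbp2, a binding protein gene that was not counted among the members, had a larger difference than any of them. It read 9.35, 9.08 and 8.32 on the arrays labelled Falcor-null, against 8.07, 7.86 and 7.43 on the wild-type arrays. Each group ran over a wide range, and the groups did not overlap. The difference of 1.13 (SE 0.27, 2.19-fold) did not pass in limma (adjusted p 0.134), and passed under 1 alternative only, the replicate block, with adjusted p-values of 0.0443 to 0.403 over the alternatives.

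Other genes of these pathways were read from 5 lists, of modulators and targets of each family and of shared RAS, MAPK and PI3K signalling. Of 127 genes measured, none passed, 79 had a difference above 0 and 48 below 0, and the median was 0.04. After centring 90 were above 0, and 91 after a second quantile normalization. The share of all genes above 0 was 50.8%, 58.5% after centring and 56.9% after a second quantile normalization. In 19 genes the groups did not overlap with the arrays labelled Falcor-null higher, and in 5 with them lower. These were 15.0% and 3.94% of the 127 genes, 18.9% in either direction, where all genes had 8.96%, 10.6% and 19.5%, so that the total was near the background.

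In the FGF list 26 of 34 genes had a difference above 0, with 29 after centring and 28 after a second quantile normalization. Hs2st1, an enzyme that sulfates heparan sulfate, the co-receptor of FGF ligands, read 9.07, 8.93 and 8.87 on the arrays labelled Falcor-null, against 8.29, 8.55 and 8.37 on the wild-type arrays. Its groups lay apart, with a difference of 0.55 (SE 0.10, 1.46-fold) and a limma adjusted p of 0.0748, which ranged from 0.0390 to 0.278 over the alternatives. Spry4, an inhibitor that FGF signalling induces, read 8.21, 8.14 and 7.92 on the arrays labelled Falcor-null, against 7.33, 7.77 and 7.35 on the wild-type arrays. These groups did not overlap either (difference 0.61, SE 0.14, 1.53-fold, limma adjusted p 0.118). Kl, the Klotho co-receptor, differed by 0.39 (limma adjusted p 0.247), with a signal in the lowest 30% of probe sets.

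Spry4 was the highest of the 13 Spry, Spred, Etv and Dusp genes of this list, a group gathered after values were seen that holds inhibitors, transcription factors and phosphatases of FGF and MAPK signalling. The other 12 differed by -0.17 to 0.27 with a median of 0.07, 8 of them above 0, 9 after centring and 8 after a second quantile normalization, and none passed in limma (adjusted p 0.423 to 0.997). Etv5 (0.27) was the highest of these, and Dusp6, a phosphatase that the MAPK pathway induces, was the lowest (-0.17).

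The EGF list was even, with 12 of 24 genes above 0 and 13 under each other scaling. Phlda1, a gene that growth factors induce, differed by 0.36 (limma adjusted p 0.212), and Adam10, a protease that releases EGF-type ligands, by 0.21 (limma adjusted p 0.257). Lrig1, an inhibitor of ErbB receptors, differed by -0.23 (limma adjusted p 0.279). In the PDGF list 9 of 15 genes were above 0, with 11 after centring and 12 after a second quantile normalization. Besides Pdgfra, the Src family kinases Yes1 (0.21, limma adjusted p 0.275) and Src (0.17, limma adjusted p 0.414) had its smallest p-values.

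In the IGF list 12 of 20 genes were above 0 and 14 under each other scaling. After Igfbp2, its smallest p-values were those of Pappa2 and Grb14. Pappa2, a protease that cuts IGF-binding proteins, differed by 0.55 (limma adjusted p 0.177), with a signal in the lowest 30% of probe sets. Grb14, an adaptor that inhibits the insulin receptor, differed by 0.25 (limma adjusted p 0.324). Of the shared signalling genes 22 of 36 were above 0, with 25 after centring and 26 after a second quantile normalization. Pik3r3, a regulatory subunit of PI3 kinase, read 7.93, 7.54 and 7.63 on the arrays labelled Falcor-null, against 7.0, 7.10 and 7.18 on the wild-type arrays. The groups did not overlap, and the difference of 0.61 (SE 0.11, 1.52-fold) did not pass in limma (adjusted p 0.0824). Plcg2, a phospholipase of immune cells, and Gab2, a docking protein, differed by -0.32 and -0.23 (limma adjusted p 0.209 and 0.237).

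Cell type markers were read beside the growth factor genes, and those of immune cells lay lower on the arrays labelled Falcor-null. None of 11 B and plasma cell markers was above 0, 4 passed as lower in limma, and the list's mean signal was 6.59 to 6.73 on the arrays labelled Falcor-null and 7.48 to 7.64 on the wild-type arrays. None of 13 T and NK cell markers was above 0, 3 passed as lower, and the mean was 6.43 to 6.59 on the arrays labelled Falcor-null and 7.0 to 7.19 on the wild-type arrays. All 12 alveolar macrophage markers were below 0, with none passing and means of 8.07 to 8.55 on the arrays labelled Falcor-null and 8.62 to 9.10 on the wild-type arrays. Of 12 monocyte and interstitial macrophage markers 11, and of 8 neutrophil markers all, were below 0 with none passing. Transcripts best known from liver were lower too, with all 8 below 0 and 2 passing in limma, Alb (adjusted p 0.0180) and Ttr (adjusted p 0.0371).

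Stromal, endothelial and alveolar type 1 markers were on the same side as the members. Of 12 alveolar fibroblast markers 11 were above 0, none passed, and the mean was 9.60 to 9.75 on the arrays labelled Falcor-null and 9.32 to 9.52 on the wild-type arrays. The exception was Fgf10, the 1 member in this list. All 14 smooth muscle and pericyte markers were above 0, 1 passed (Tagln, an actin-binding protein, adjusted p 0.0407 in limma), and the mean was 8.30 to 8.48 on the arrays labelled Falcor-null and 8.05 to 8.12 on the wild-type arrays. Of 11 endothelial markers 10 were above 0, none passed, with means of 10.29 to 10.44 on the arrays labelled Falcor-null and 10.09 to 10.17 on the wild-type arrays. The exception was Car4 (-0.14), which was also counted among the alveolar macrophage markers. All 10 alveolar type 1 cell markers were above 0, 1 passed (Spock2, adjusted p 0.0324 in limma), with means of 10.79 to 10.87 on the arrays labelled Falcor-null and 10.55 to 10.64 on the wild-type arrays. Of 7 mesothelial markers 6 (7 under each other scaling) and of 6 airway cartilage markers 5 were above 0, with none passing. The counts of fibroblast, smooth muscle, endothelial and alveolar type 1 markers were the same under both other scalings.

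The median difference was 0.30 over the alveolar fibroblast list, 0.25 over the smooth muscle and pericyte list, 0.17 over the endothelial list and 0.19 over the alveolar type 1 list, beside 0.13 over the members. In alveolar type 2 cell markers it was 0.00, with 5 of 10 above 0 and 6 under each other scaling. The part of the makeup of the tissue in the members' differences was not tested, and in whole lung fewer cells of a type and less RNA per cell cannot be told apart.

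**Figure D4:**
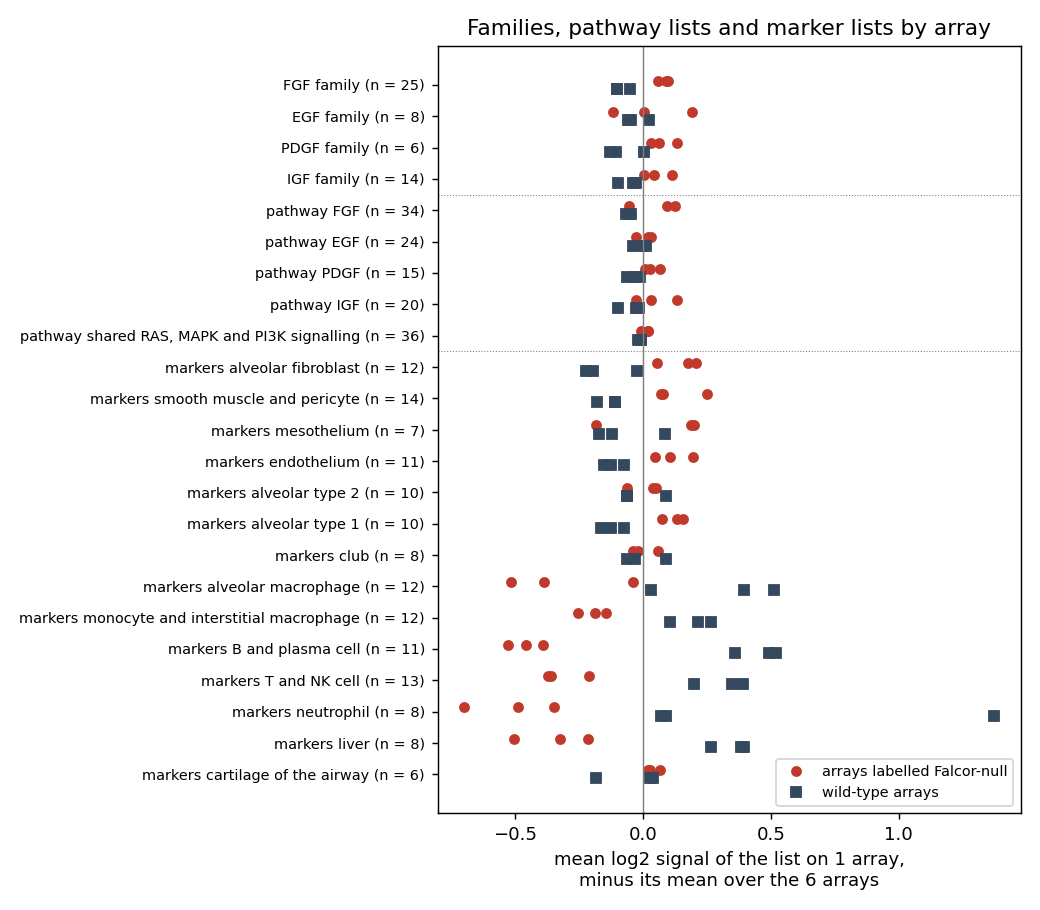
Mean log2 signal of each list on each array minus the list's mean over the 6 arrays (horizontal axis), for the 4 growth factor families, the 5 pathway lists and the 14 marker lists. Circles are arrays labelled Falcor-null and squares are wild-type arrays, and n is the number of genes. Means of the FGF, PDGF and IGF families lie apart by group, as do the alveolar fibroblast, smooth muscle, endothelial and alveolar type 1 lists on the same side and the immune and liver lists on the opposite side, while the EGF family overlaps.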

How the data were processed

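Per the labels' protocols, RNA extracted from whole lung with Trizol and cleaned on columns was amplified and labelled with biotin. The authors' deposited table holds log2 values, 1 column per array. Tools listed in the submitters' processing notes are oligo, RMA and limma, with no version. RMA includes a step that equalises the arrays' distributions, which can hide a change shared by most genes. The deposited values were not fully equalised. Their lowest signal was 2.09 to 2.42 on the arrays labelled Falcor-null and 3.19 to 3.22 on the wild-type arrays. The sources used here name neither a filter nor a build, and no detection call was available.

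Of 24173 probe sets, 17476 carried a single symbol in the platform annotation, 1308 carried several and 5389 none. The highest-mean probe set stood for a gene, which left 16537 genes. Groups came from the titles. Each gene was fitted in limma 3.58.1 under R 4.3.3 (lmFit, eBayes, two-sided, group as the only term), and p-values were adjusted by Benjamini-Hochberg over the 16537 genes. An exact permutation test of 3 against 3 arrays cannot go below 0.1. The fit was tested on simulated data, with spreads drawn from the model and not from each gene. It recovered 16 of 67 simulated log2 changes of 0.5 (23.9%), 54 of 67 of 1 and 66 of 66 of 2, with 9 false calls. Most changes of 0.5 were thus missed at this number of arrays.

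The members and all lists were chosen with earlier results of these data known. Values on every array are given for members that passed (none), the 8 largest and 8 smallest differences among members with separated groups, and a fixed set of ligands, receptors and binding proteins. Pathway genes named were up to 3 per list with the smallest p. Alternatives were the replicate block, 2 further scalings, other variance models, array weights, filters on dim genes, other uses of probe sets, a wider threshold and leaving out each array.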

Additional observations from a re-analysis of the deposited data

How the results depend on the processing

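None of the 53 members passed under any of the 18 alternatives, with 5 to 11 at an unadjusted p of 0.05 under those that refit the genes, and the members' smallest adjusted p ran from 0.133 to 0.365. Their median difference stayed between 0.08 and 0.16. The number of all genes passing was 92, against 32 with the replicate block, 280 at an adjusted p under 0.1 and 18 to 89 with 1 array left out. An ordinary linear model without shared variance, chosen after seeing the data, called 0 genes, with 1894 at an unadjusted p of 0.05. Of the 127 pathway genes, 1 passed with the replicate block (Igfbp2, adjusted p 0.0443), 1 with an intensity trend (Hs2st1, adjusted p 0.0390), 1 with genes below the median left out (Hs2st1, adjusted p 0.0452) and 2 at an adjusted p under 0.1 (Hs2st1 and Pik3r3), and leaving out 1 array gave 0 throughout. Same-numbered arrays showed no visible shared deviation, with correlations of deviations between them of 0.0217, -0.00255 and -0.0814. With 3 arrays a group this cannot exclude a pairing, and the labels give the block nothing but a number. For the 47 genes named, 765 of 781 values kept their sign and side of the threshold, 3 newly passed and 13 changed sign, all of these in members that had not passed. Fgf10 was 0.06 with probe sets averaged. With 1 array left out, the differences ran from -0.09 to 0.22 for Egfr, -0.04 to 0.10 for Igfbp6, -0.12 to 0.05 for Fgf9, -0.32 to 0.20 for Igf1, -0.01 to 0.24 for Fgf7, -0.04 to 0.14 for Fgfr1, -0.05 to 0.22 for Btc and -0.03 to 0.37 for Ereg, and no named member passed. The cause was not tested. Leaving out 1 array also moved other differences by over 1.5 times, and those given here are examples and not a full list. Igfbp3 (0.20) was 0.05 without wild type replicate 2, and Pdgfrb (0.15) 0.05 without wild type replicate 1. Pdgfa (0.22) was 0.12, Fgfr2 (0.25) 0.15 and Igfbp5 (0.36) 0.15 without Falcor-null replicate 1. Fgfr3 (0.34) was 0.21 without Falcor-null replicate 3, and Fgf15 (0.16) 0.08 without wild type replicate 2. Igfbp7 and Igfbp4 shrank by more than that factor without Falcor-null replicate 2, as did Fgf2 without wild type replicate 2. Igf1r grew by more than that factor without wild type replicate 1. Leaving out dim genes kept 35 members above the 30th percentile and 29 above the median, so the others have no value there.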
